A study of Gallus gallus with 4 samples.

Results

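The enzymes that activate and inactivate thyroid hormone, the nuclear receptors that bind it and its carrier transthyretin were measured along both axes of the developing optic tectum, the midbrain structure in which retinal axons of the chick end. The genes described are DIO2, DIO3, THRA, THRB and TTR. Probes were taken by gene name, or by a description that names a deiodinase, a thyroid hormone receptor or transthyretin, and this found 23 of 42034 gene probes, or 22 of 40572 genes and unnamed features. Of the probes, 8 were probes of the genes themselves, including DIO1, another THRB probe for the beta 2 form and a predicted gene described as similar to transthyretin (LOC421091). The other 15 were probes of proteins that interact or associate with the receptors. The genes were chosen by measured values, the anteroposterior log2 ratios of DIO3 on these same arrays, so the anteroposterior ratios of the 23 probes are given as a description and are not tested. These ratios still enter the residual spread behind the mediolateral p-values, which are therefore not independent of the choice of genes. The stage fits use the mean intensity of both channels, not the ratios.

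The arrays were 4 two-colour arrays, each setting a Cy5-labelled pool of tectal tissue against a Cy3-labelled pool from the opposite side, with 60 bisected tectal pieces in each pool. The anteroposterior axis had 1 array at Hamburger-Hamilton stage HH37 and 1 at HH35, with posterior tectum in Cy5 and anterior tectum in Cy3. The mediolateral axis had 1 array at HH35 and 1 at HH30. The embryos were Gallus gallus incubated to the stage named, and no treatment or genetic change is given for any group. There was no biological replicate, no technical replicate and no dye swap, so a ratio on 1 array has no replicate check, and a dye effect of a probe cannot be told apart from a difference between the pools. For the mediolateral arrays the dye labels put medial tectum in Cy5, whereas the authors' deposited table, headed medial over lateral, runs as Cy3 over Cy5, so those ratios are given by dye and no side is named. In pooled tissue, fewer cells of a type and less RNA per cell cannot be told apart.

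Thyroid hormone reaches the brain mainly as thyroxine, a precursor with little activity of its own. The type 2 deiodinase DIO2 removes iodine from its outer ring and makes the active hormone triiodothyronine, while the type 3 deiodinase DIO3 removes iodine from the inner ring and inactivates both. Triiodothyronine acts through the receptors THRA and THRB, which sit on DNA with a retinoid X receptor, hold corepressors without hormone and coactivators with it. In the developing brain this system is known for timing the step of neural progenitors to differentiated neurons. Transthyretin, TTR, carries thyroxine and is made in the brain by the choroid plexus.

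A channel was taken as above background where the mean foreground of the spot exceeded its median background by more than 2.6 SD of that background. In at least 1 channel, 63.2% of gene probes passed on the anteroposterior array at HH37 and 79.5% at HH35, against 70.9% and 70.1% on the mediolateral arrays at HH35 and HH30. The HH37 array was the dimmest. Genes of maturing neurons were above background on all 4 arrays for all 8 of the 8 listed genes with a probe, and the radial glial list for all 7 of 7, in at least 1 channel. The 4 arrays are 4 blocks of the scanner output, 1 array to a block, so block and array cannot be told apart.

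DIO3, DIO2 and THRA were above background in 8 of 8 channels, and the other 5 probes of the genes themselves were not. THRB passed in 1 of 8 channels, the THRB beta 2 probe in 1 and DIO1 in 1. TTR and the transthyretin-like gene passed in 0 of 8. None of the 92 spots of the 23 probes held saturated pixels, the count being 0. Thus 3 of 8 probes of the genes themselves, and 15 of 15 probes of interacting proteins, were measured on all 4 arrays.

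**Figure D1:**
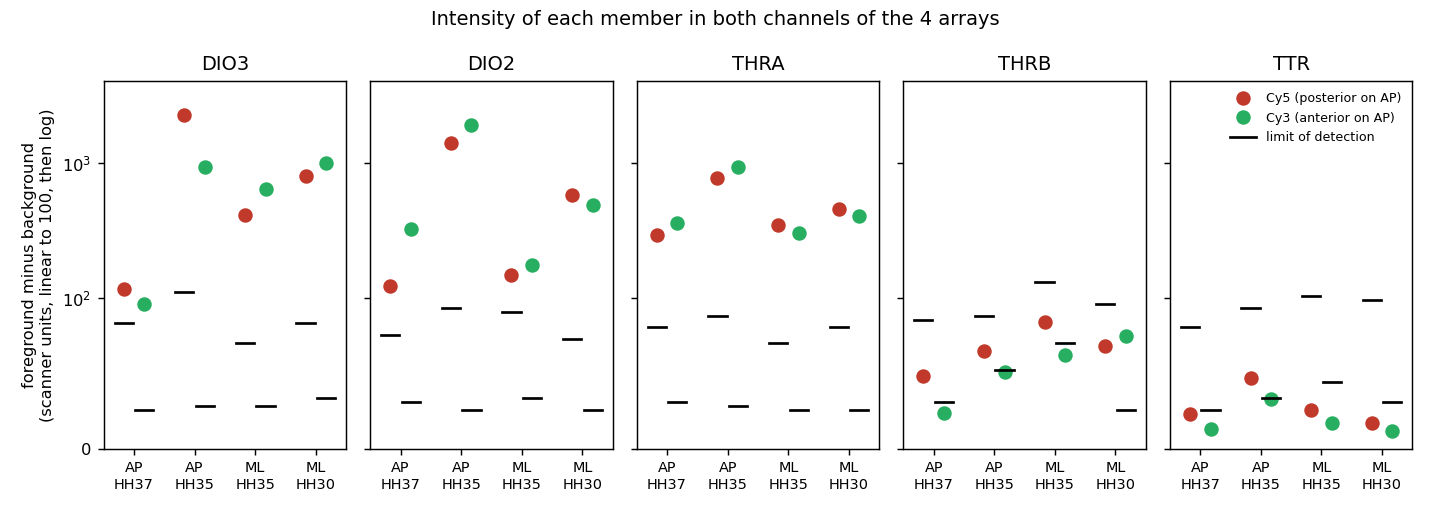
Foreground minus background intensity in scanner units (vertical axis, linear to 100 and logarithmic above) of DIO3, DIO2, THRA, THRB and TTR in the Cy5 and Cy3 channels of the 4 arrays, with a black line at the limit of detection of each spot. DIO3, DIO2 and THRA lie above the limit in all 8 channels, while THRB passes it in 1 of 8 and TTR in 0 of 8.

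DIO3, the inactivating enzyme, was higher in posterior than in anterior tectum at HH35. Its mean foreground at HH37 was 158 in the posterior channel and 134 in the anterior channel, over backgrounds of 41 and 38. At HH35 it was 2281 in the posterior channel and 964 in the anterior channel, over backgrounds of 43 and 43. Both channels at HH37 thus lay far closer to background than at HH35. After background correction and loess normalisation the log2 ratio of posterior over anterior was 0.49 at HH37 and 1.57 at HH35. DIO3 was therefore 1.40-fold higher posteriorly at HH37 and 2.97-fold higher at HH35. By rank from the posterior end it stood at place 1001 of 25516 measured genes and unnamed features at HH37 and at place 16 of 32131 at HH35. The difference between these log2 ratios, HH37 minus HH35, was -1.08, for which no test was made, each stage having 1 array. In the authors' deposited table the ratio of Cy3 over Cy5, anterior over posterior, was 0.624 at HH37 and 0.302 at HH35, on the same side at both stages. Median centring in place of loess gave 0.22 at HH37 and 1.31 at HH35, and plain background subtraction gave 0.75 at HH37.

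Along the mediolateral axis DIO3 stood on the Cy3 side at both stages. Its foreground was 460 in Cy5 and 680 in Cy3 at HH35, and 844 in Cy5 and 1040 in Cy3 at HH30. The Cy3 pool was 1.46-fold higher at HH35, a log2 ratio of -0.55, and 1.23-fold higher at HH30, a log2 ratio of -0.29. At HH35 this was place 352 from the Cy3 end of 28618 measured features, and at HH30 place 2658 of 28298. Over both stages the mean log2 ratio was -0.42 ± 0.21 (SE, limma, adjusted p = 0.677 over 30522 features, unadjusted p = 0.0726), with both arrays on the Cy3 side, so it did not pass. The standard error and p rest in part on the spread between the anteroposterior arrays, from which the gene was chosen. With 1 or the other anteroposterior array left out, so that the spread came from the mediolateral arrays alone, the mean stayed at -0.42 and the adjusted p was 0.289 by limma. The same limit holds for every mediolateral p below. The side differs from that on the anteroposterior arrays, where DIO3 was higher in Cy5.

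DIO2, the activating enzyme, was close to even between the pools at HH35 and higher in anterior tectum at HH37. At HH37 its foreground was 173 in the posterior channel and 367 in the anterior channel. At HH35 it was 1445 in the posterior channel and 1953 in the anterior channel, where the anterior channel was also brighter over the array as a whole. The normalised log2 ratio was -0.67 at HH37, 1.59-fold higher anteriorly, and -0.11 at HH35. It stood at place 1850 from the anterior end of 25516 features at HH37. The authors' deposited table had it on the same side, with ratios of Cy3 over Cy5 of 1.64 at HH37 and 1.08 at HH35. Along the other axis DIO2 had a foreground of 197 in Cy5 and 220 in Cy3 at HH35, and 616 in Cy5 and 531 in Cy3 at HH30. The log2 ratios were -0.18 at HH35 and 0.21 at HH30, on opposite sides, and their mean was 0.01 ± 0.17 (SE, limma, adjusted p = 0.990).

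Along the anteroposterior axis the log2 ratio of DIO3 exceeded that of DIO2 by 1.15 at HH37 and by 1.68 at HH35. Both differences contain the DIO3 ratios by which the genes were chosen, so they are a description and were not tested. DIO3 lay below DIO2 on the mediolateral arrays, with differences of -0.36 at HH35 and -0.51 at HH30. Each of these differences was taken within 1 array, and they show unequal ratios of the enzymes, not a ratio of their amounts. DIO1, the type 1 deiodinase, which acts mainly in liver and kidney, was above background in 1 channel only, Cy3 of the mediolateral array at HH35, and no ratio is given for it. SECISBP2, the protein needed to insert selenocysteine into the deiodinases, had log2 ratios of -0.01 at HH35 along the anteroposterior axis, and -0.24 and -0.08 along the mediolateral axis at HH35 and HH30. At HH37 the posterior spot of SECISBP2 fell under the limit, and no ratio is given there.

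**Figure D2:**
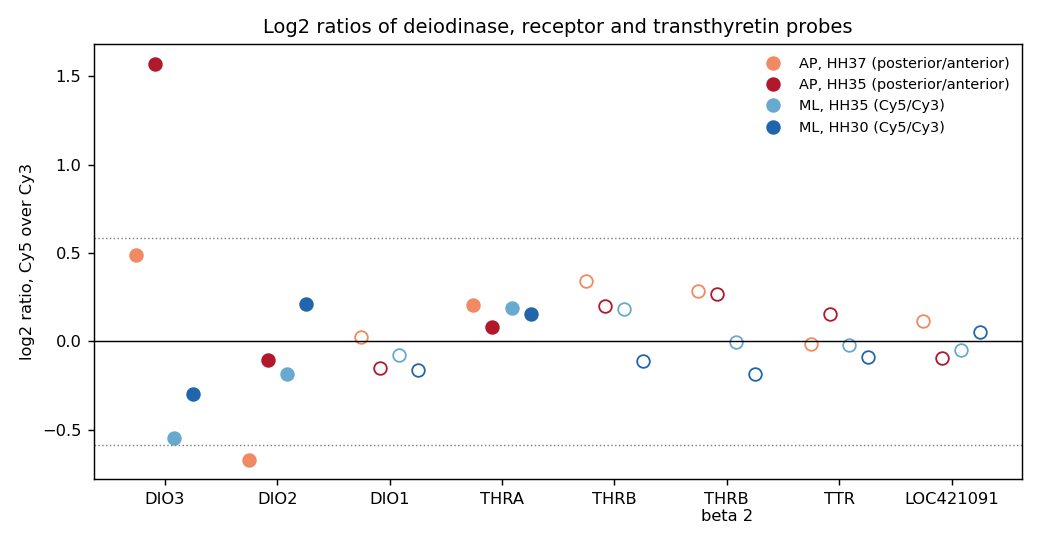
Normalised log2 ratio of Cy5 over Cy3 (vertical axis) of the 8 probes of the genes themselves on the 4 arrays, with filled points where both channels were above background, open points where at least 1 was not, and dotted lines at 1.5-fold. DIO3 lies past the dotted line on the posterior side at HH35 (1.57) and DIO2 past it on the anterior side at HH37 (-0.67), while all 4 THRA points lie between 0.08 and 0.21.

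THRA, the receptor form known as the main one in the embryonic brain, was nearly even on every array. Its foreground was 333 in the posterior channel and 398 in the anterior channel at HH37, and 809 and 976 at HH35. The anterior channel was the brighter over the whole of both arrays, with median foregrounds of 99 in the posterior and 107 in the anterior channel at HH37, and of 194 and 229 at HH35. The mediolateral arrays gave 394 in Cy5 and 344 in Cy3 at HH35, and 500 and 450 at HH30. The log2 ratios were 0.21 at HH37 and 0.08 at HH35 along the anteroposterior axis, and 0.19 at HH35 and 0.16 at HH30 along the mediolateral axis. All 4 ratios were on the Cy5 side and under 1.5-fold, and a dye effect of the probe cannot be told apart from these differences. Median centring turned both anteroposterior values to the anterior side, at -0.21 at HH37 and -0.19 at HH35. The mediolateral mean was 0.17 ± 0.14 (SE, limma, adjusted p = 0.793, both arrays on the Cy5 side). In the authors' deposited table the Cy3 over Cy5 ratios of THRA were 0.756 at HH37 and 0.977 at HH35, and 0.913 and 0.932 on the mediolateral arrays at HH35 and HH30.

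THRB, the receptor form that comes later in brain development, gave foregrounds of 88 in the posterior and 61 in the anterior channel at HH37, and 104 and 89 at HH35. For the mediolateral axis it was 130 in Cy5 and 101 in Cy3 at HH35, and 107 and 111 at HH30. It passed the limit only in Cy3 of the mediolateral array at HH30, with a Cy3 signal that does not exceed the limit in Cy5, so no ratio is given. The THRB beta 2 probe, for the form known from the retina and the pituitary, passed in the anterior channel at HH35 alone. No ratio is given for it either. Against a limit chosen after the data were seen, the 95th percentile of 153 negative control spots, THRB passed in 8 of 8 channels and the beta 2 probe in 5. By the same limit DIO1 passed in 6 of 8. Whether THRB or DIO1 was detected thus depends on the limit used. The authors' deposited table lists THRB with Cy3 over Cy5 ratios of 0.428 at HH37 and 1.54 at HH35, on opposite sides, from spots that did not pass in either channel of these arrays.

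The TTR probe, which its description ties to an expressed sequence tag, had foregrounds of 60 in the posterior and 51 in the anterior channel at HH37, and 90 and 74 at HH35. It had 71 in Cy5 and 61 in Cy3 of the mediolateral array at HH35, and 69 and 52 at HH30. Neither TTR nor LOC421091 passed the limit in any channel. By the limit from negative controls TTR passed in 5 of 8 channels and LOC421091 in 3. The authors' deposited table gives TTR a Cy3 over Cy5 ratio of 2.32 at HH37, again from a spot below the limit in both channels. The arrays therefore give no ratio for TTR, and its absence from the tissue was not shown.

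**Figure D3:**
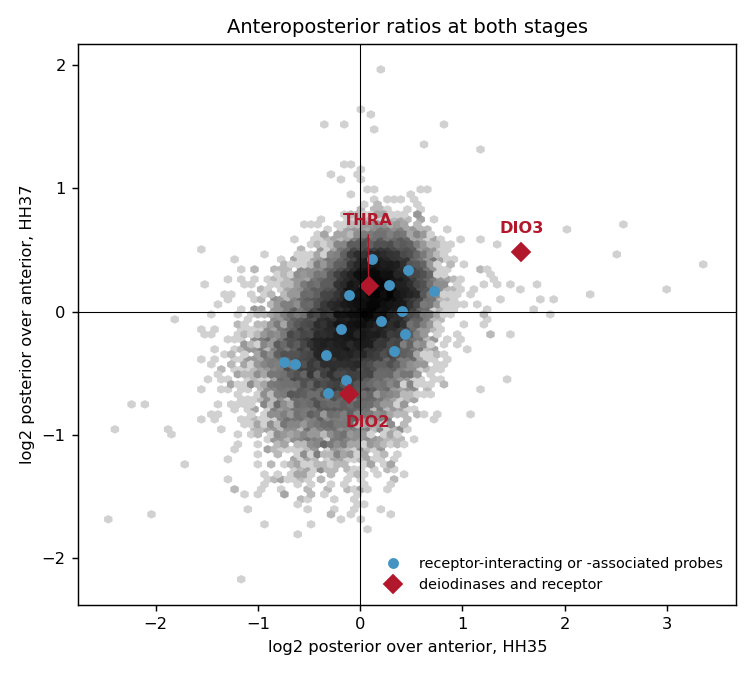
Log2 ratio of posterior over anterior at HH37 (vertical axis) against that at HH35 (horizontal axis), with all features measured on both arrays in grey, darker where more lie, DIO3, DIO2 and THRA as red diamonds and the 15 probes of interacting proteins in blue. DIO3 stands at 0.49 at HH37 and 1.57 at HH35, near the right edge of the cloud, DIO2 at -0.67 and -0.11, and THRA at 0.21 and 0.08.

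Of the 3 to 4 probes of the genes themselves that were measured on an array, those past 1.5-fold were DIO2 at HH37 and DIO3 at HH35. At HH37, 0 of 3 were past 1.5-fold on the posterior side, where 1.5% of all 25516 measured features were, and 1 on the anterior side, where 9.92% were. At HH35, 1 of 4 was past it posteriorly, where 2.05% of 32131 features were, and 0 anteriorly, where 6.05% were. These counts rest on the ratios known when the genes were chosen and nothing is read from them. In the mediolateral comparison 0 of 4 were past 1.5-fold on either side at either stage. The shares of all features there were 1.43% in Cy5 and 0.783% in Cy3 at HH35, and 1.49% and 1.18% at HH30.

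The 15 probes of receptor-interacting proteins were mostly under 1.5-fold. Along the anteroposterior axis at HH37 their median log2 ratio was -0.14, with 6 on the posterior side and 9 on the anterior side, where the median of all features was -0.02. At HH35 the median was 0.11, with 8 posterior and 7 anterior, against -0.01 over all features. THRAP3, a protein of transcription and splicing first found with the receptor, was the 1 probe past 1.5-fold at HH37, with a computed anterior excess of 1.58-fold. Its posterior spot fell under the limit. The fold takes that spot at its computed signal and is not a lower bound. At HH35 both probes of TRIP11, a Golgi protein first isolated through its binding to the receptor, were higher anteriorly. One had a log2 ratio of -0.64, with a foreground of 1435 in the posterior and 2800 in the anterior channel, and the other -0.74, with 326 and 692. The unnamed probe TC203807, described as a receptor-associated protein of the Mediator complex, was higher posteriorly at 0.72, with 1219 and 936. At HH37 none of these 3 probes was past 1.5-fold. TC206072, described as part of the receptor-associated complex, had foregrounds of 175 in the posterior and 161 in the anterior channel at HH37, a log2 ratio of 0.42. At HH35 it had 144 and 142, with the posterior spot under the limit, and on the mediolateral array at HH35 its log2 ratio was 0.19.

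Subunits of Mediator, the complex that joins DNA-bound receptors to RNA polymerase, lay on both sides. MED1, the subunit that receptors contact directly, had log2 ratios of -0.32 at HH37 and 0.33 at HH35, on opposite sides. MED24 had -0.18 and 0.44, MED13 -0.14 and -0.19, and MED13L -0.56 and -0.14. Mediolaterally MED1, MED24, MED13 and MED13L lay between -0.38 and 0.08. TC203807 and TC206072, also described as parts of the receptor-associated complex, stood higher at HH35, at 0.46 and 0.19. At HH30 TC203807 was at 0.07, and the Cy5 spot of TC206072 was under the limit. The descriptions of TC203807 and of the MED13L probe both liken them to the component named for MED13. TC203807 nevertheless lay opposite to MED13L on every array. Along the anteroposterior axis it stood at 0.16 at HH37 and 0.72 at HH35, against -0.56 and -0.14 for MED13L. On the mediolateral arrays MED13L was at -0.25 at HH35 and -0.38 at HH30. Whether both probes measure the same transcript is not settled. The corepressor SMRT, which keeps the receptor silent without hormone, is described for 2 unnamed probes. TC193035 stood at 0.01 at HH37 and 0.41 at HH35, and TC223810 at 0.20 at HH35, with a posterior spot under the limit at HH37. The coactivator NCOA3 stood at -0.36 and -0.33, and TRIP4, a coactivator subunit, at 0.13 and -0.11. None of these differences between stages was tested.

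Mediolaterally the 15 probes had medians of -0.04 at HH35 and -0.04 at HH30, against -0.02 over all features at both stages. At HH35, 2 were past 1.5-fold, both in Cy5, and at HH30, 0 were. They were TC222609, described as a receptor coactivating protein, at 0.66 at HH35 and 0.47 at HH30, and TC226804, described as similar to TRIP11, at 0.63 and 0.37. Their means were 0.57 ± 0.14 and 0.50 ± 0.14 (SE, limma, adjusted p = 0.448 and 0.472), with both arrays of each on the Cy5 side. Both also stood on the Cy5 side of the anteroposterior arrays, at 0.33 and 0.22 at HH37 and 0.47 and 0.28 at HH35. On the anteroposterior array at HH35 the TC226804 probe thus lay opposite to both TRIP11 probes, and the files do not settle whether it measures the same transcript. In the mediolateral limma fit 2 of 30522 features passed, 0.00655%, and no probe of the 23 was among them. They were TENM3 and an unnamed probe, named here after their values were seen. At an unadjusted p under 0.05, 2357 features passed, 7.72%.

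The level of each gene in the whole tectum was taken as the mean normalised log2 intensity of both channels, which together hold the whole tectum. DIO3 had a level of 9.83 at HH30, of 9.27 and 9.65 on the mediolateral and anteroposterior arrays at HH35, and of 7.92 at HH37. The HH37 level lay below the other 3. The log2 difference, HH37 minus HH35, was -1.54 ± 0.64 (SE, limma, adjusted p = 0.931, unadjusted p = 0.0589), and HH30 differed from HH35 by 0.36 ± 0.64 (adjusted p = 1.0 by limma), so neither passed. By pool, the posterior DIO3 level was 8.16 at HH37 and 10.43 at HH35, and the anterior level 7.68 at HH37 and 8.86 at HH35. The difference between the stages was -2.27 in the posterior pools and -1.19 in the anterior pools, each from 1 array per stage and not tested. The gap between these differences is the change in the anteroposterior ratio of DIO3 given above, -1.08. It thus restates the ratios by which the genes were chosen.

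DIO2 had a level of 9.15 at HH30, of 7.80 and 9.83 on the mediolateral and anteroposterior arrays at HH35, and of 8.77 at HH37. Its levels on the arrays of the same stage thus differed by 2.03, more than either stage differed from the HH35 mean. HH37 minus HH35 was -0.04 ± 0.99 (SE, limma, adjusted p = 0.995) and HH30 minus HH35 was 0.33 ± 0.99 (adjusted p = 1.0 by limma). THRA had levels of 8.90 at HH30, 8.67 and 8.96 at HH35 and 9.37 at HH37, its highest. HH37 exceeded HH35 by 0.56 ± 0.63 (SE, limma, adjusted p = 0.933), within the error, and by 0.075 with median centring between arrays in place of quantile normalisation. THRB lay between 6.54 and 7.08 and TTR between 6.14 and 6.38, at spots mostly below the limit.

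**Figure D4:**
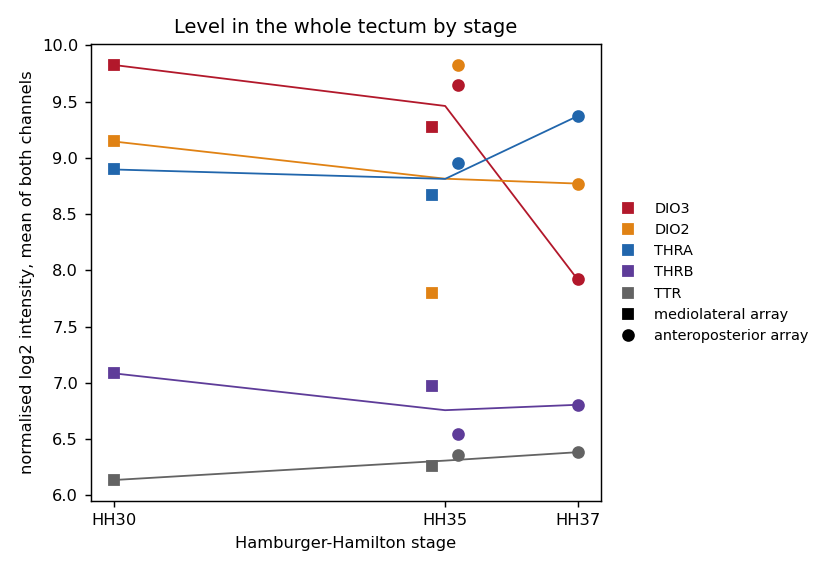
Normalised log2 intensity, the mean of both channels of an array (vertical axis), by Hamburger-Hamilton stage (horizontal axis), with squares for mediolateral arrays, circles for anteroposterior arrays and a line through the mean of both HH35 arrays. DIO3 stands at 7.92 at HH37 and between 9.27 and 9.83 on the other 3 arrays, while the DIO2 points at HH35 lie 2.03 apart. Levels of different probes are not to be set against each other.

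The spread behind these levels was wide. Over 26952 features the levels of the HH35 arrays differed by a median of 0.603 on the log2 scale, 29.8% of features differed at least 2-fold and 8.36% at least 4-fold. The spread in the stage fit comes from those 2 arrays alone, with 1 residual degree of freedom, and they also differ in axis and hybridisation. Of 30522 features, 0 passed at HH37 over HH35 in limma (487 at an unadjusted p under 0.05, 1.6%) and 0 at HH30 over HH35 (571, 1.87%). On simulated data of 30522 features the stage fits recovered 0% of features changed by 1 or by 2 on the log2 scale, so the counts of 0 do not show that levels were alike. THRAP3 had the lowest difference at HH37 over HH35 among the probes of the 23 that were fitted, at -2.09 ± 0.76 (SE, limma, adjusted p = 0.931). At HH30 over HH35 1 of the 2 SMRT probes, TC223810, was at 1.96 ± 0.62 and TRIP4 at 1.77 ± 0.64 (SE, limma, adjusted p = 1.0 for both). The other SMRT probe, TC193035, lay on the opposite side, at -1.30 ± 0.95 (SE, limma), and did not pass either.

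Other genes of the pathway were read from lists chosen with earlier results of these data known. Of 15 receptor coregulators 12 had a probe and all 12 were measured on every array. MED1, NCOA3, THRAP3, TRIP11 and TRIP4 of this list are also among the 15 probes above. At HH37 along the anteroposterior axis 11 of 12 were on the anterior side, while 47.5% of all features were on the posterior side. The median log2 ratio was -0.34, and 0 were past 1.5-fold posteriorly and 4 anteriorly. Of all 25516 features on that array 1.5% were past it posteriorly and 9.92% anteriorly, and at HH35 the shares were 2.05% and 6.05%, against which the counts of this and the following lists are to be read. The corepressor NCOR1 stood at -1.06 and the coactivator NCOA1 at -1.04. THRAP3 and TBL1XR1, a subunit of the corepressor complex, had computed anterior excesses of 1.58-fold and 1.53-fold, both with posterior spots under the limit. At HH35 there were 0 posteriorly and 1 anteriorly, TRIP11, with a median of -0.21, NCOR1 at -0.56 and NCOA1 at -0.02. Mediolaterally 0 of 12 were past 1.5-fold, with medians of -0.07 at HH35 and 0.02 at HH30. HDAC3, the histone deacetylase of the corepressor complex and the brightest of the list, stood between -0.19 and -0.04 on the 4 arrays. NCOA2, the dimmest, was at -0.34 at HH35, with its posterior spot under the limit at HH37. RXRG is a retinoid X receptor and the 1 partner of the list with a probe. By its brightest probe the log2 ratios were 0.00 at HH37, 0.10 at HH35, and 0.17 and 0.14 on the mediolateral arrays at HH35 and HH30. Its other probe gave 0.34 at HH37, 0.25 at HH35, and 0.02 and -0.02 on the mediolateral arrays at HH35 and HH30.

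Of 11 thyroid hormone transporters 6 had a probe. SLCO2B1, an organic anion transporter, was on the Cy5 side of all 4 arrays, at 0.48 at HH37 and 0.62 at HH35 along the anteroposterior axis and at 0.35 and 0.27 along the mediolateral axis at HH35 and HH30. Its mediolateral mean was 0.31 (limma, adjusted p = 0.646, both arrays in Cy5). SLC7A5, an amino acid transporter that also takes up thyroid hormone and the brightest of the list, stood at -1.12 at HH37 and -0.43 at HH35, anterior at both stages. Its mediolateral ratios were -0.25 at HH35 and -0.07 at HH30. SLCO1C1, which carries thyroxine at the blood-brain barrier and was the dimmest, was above background on the HH37 array alone, in the anterior channel only.

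Among binding proteins, CRYM, a cytosolic binder of triiodothyronine, stood at -0.37 at HH37 and 0.13 at HH35, and at -0.55 and 0.13 on the mediolateral arrays at HH35 and HH30. PRDX6, a peroxiredoxin and the brightest of the list, stood at -0.99 at HH37 and 0.28 at HH35, and was the 1 of 4 measured members past 1.5-fold at HH37. ALB, serum albumin, lay between 0.09 and 0.35. Of the 5 thyroid and pituitary hormone genes with a probe, TSHR and TRHR were not above background on any array, and 0 were past 1.5-fold.

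Known thyroid hormone responsive genes did not lie on 1 side. Of 23 listed genes 11 had a probe, and 7 were measured on the anteroposterior array at HH37 and 10 at HH35. At HH37, 0 were past 1.5-fold posteriorly and 3 anteriorly, with a median of -0.39, and at HH35, 1 posteriorly and 1 anteriorly, with a median of -0.33. MBP, a myelin protein known to rise with thyroid hormone in the mammalian brain, was the posterior one, at 0.36 at HH37 and 1.18 at HH35. RORA, a nuclear receptor of Purkinje cell development, was anterior at both, at -0.88 and -1.09. ATP2A2, a calcium pump and the brightest of the list, stood at -0.68 and -0.41. CAMK4, a calmodulin-dependent kinase, was a computed 1.55-fold higher anteriorly at HH37, with its posterior spot under the limit. At HH35 CAMK4 stood at -0.54. PVALB, a calcium-binding protein, was at -0.31 at HH35 and -0.68 at HH30 on the mediolateral arrays, on the Cy3 side. Its mediolateral mean was -0.49 (limma, adjusted p = 0.481). THRSP, the dimmest, was not above background on any array.

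Markers of some cell states lay to the same side as DIO3 or DIO2 on some arrays and not on others. Their part in those ratios was not tested. Of 10 progenitor and cycling genes, 9 were measured at HH37, where DIO3 stood at 0.49. Of these, 5 lay on the posterior and 4 on the anterior side. The median of the 9 was 0.01 and the range -0.58 to 0.63. PAX6 was the lowest. The posterior spots of PAX6, SOX2, CCNB3 and CDK1 were under the limit at HH37. The median is the computed value of CCNB3, so it rests on such a spot. MKI67 was posterior by its brightest probe, at 0.23, while another measured probe of it stood at -0.59. By the brightest probe of each gene, past 1.5-fold were 1 posteriorly, MSI1 at 0.63, and 0 anteriorly. At HH35, where DIO3 stood at 1.57, 5 of 10 were past it posteriorly and 0 anteriorly, with a median of 0.56 and a range of -0.07 to 1.25, where 2.05% and 6.05% of all features were. These 5 were CCNB3, a cyclin, at 1.25, the progenitor transcription factors PAX6 at 0.82 and SOX3 at 0.81, MSI1 at 0.69 and the replication factor MCM2 at 0.59. Of the 8 maturing neuron genes, by the brightest probe of each, 0 were past 1.5-fold posteriorly and 8 anteriorly at HH37, where DIO2 stood at -0.67. Of all features there, 1.5% and 9.92% were past it. The 8 genes had a median of -1.50 and a range of -2.17 to -0.67. MAP1B, a microtubule-associated protein, was the lowest, followed by the neurofilament genes NEFM at -1.60 and NEFL at -1.59. DCX stood at -1.54 by its brightest probe, while its other measured probes ran from -1.16 to -0.04 at HH37. At HH35, where DIO2 was nearly even at -0.11, 4 of 8 were past 1.5-fold anteriorly, with a median of -0.75 and MAP1B at -1.15. On the mediolateral arrays, where DIO3 was on the Cy3 side, the neuron list had medians of -0.36 at HH35 and 0.20 at HH30, and the progenitor list 0.01 and -0.15. SNAP25, a synaptic protein, was past 1.5-fold in Cy3 at HH35, at -0.75, and NEFL in Cy5 at HH30, at 0.63.

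In mammals DIO2 is known from tanycytes and astrocytes, cells related to radial glia, so the radial glial list is given beside it. At HH37, 0 of 7 were past 1.5-fold posteriorly and 3 anteriorly, GLUL at -1.17, SLC1A3 at -0.90 and NES at -0.62. On the posterior side lay 1 of the 7, RAX at 0.10. The other 6 lay on the anterior side, among them FABP7, the brightest, at -0.40. The list had a median of -0.58. That median is the computed value of PAX6, whose posterior spot was under the limit, as was that of SOX2. With the PAX6 spot set at the lowest signal above the limit on the array, its anterior excess is 1.20-fold. At HH35, 2 were past 1.5-fold posteriorly, PAX6 and NES at 0.63, with a median of -0.16. PAX6 was also past it in Cy5 of the mediolateral array at HH30, at 1.40. Vascular and meningeal genes had medians of -0.20 at HH37, with CLDN5 at -0.60, and of -0.02 at HH35, with CDH5 at -0.68 and DCN at -0.60. Of the 3 blood genes with a probe, all haemoglobin genes, HBBA stood at -1.68 at HH37 and 0.03 at HH35, and at -0.87 and 0.15 on the mediolateral arrays at HH35 and HH30. HBZ and HBE1 lay on the other side where HBBA was low, at 0.38 and 0.43 at HH37 and at 0.46 and 0.49 on the mediolateral array at HH35. The list thus had medians of 0.38 at HH37 and 0.19 at HH35 along the anteroposterior axis, and of 0.46 and 0.16 mediolaterally at HH35 and HH30.

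The choroid plexus markers bear on TTR. Of 11 listed genes 8 had a probe. TTR itself and KL were not above background on any array. At HH37, 1 of 5 measured was past 1.5-fold posteriorly, the bicarbonate transporter SLC4A5 at 0.61, with a median of 0.22, and at HH35 0 of 6 were, with a median of -0.04. On the posterior and anterior sides there were 3 and 2 genes at HH37, and 3 and 3 at HH35. ENPP2 was the lowest, at -0.55 at HH35 and at a computed -0.43 at HH37, with its posterior spot under the limit there. PRLR, the prolactin receptor, was past 1.5-fold in Cy5 at HH30 on the mediolateral array, at 0.59. The water channel AQP1, the brightest, stood at 0.33 at HH37 and -0.10 at HH35.

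**Figure D5:**
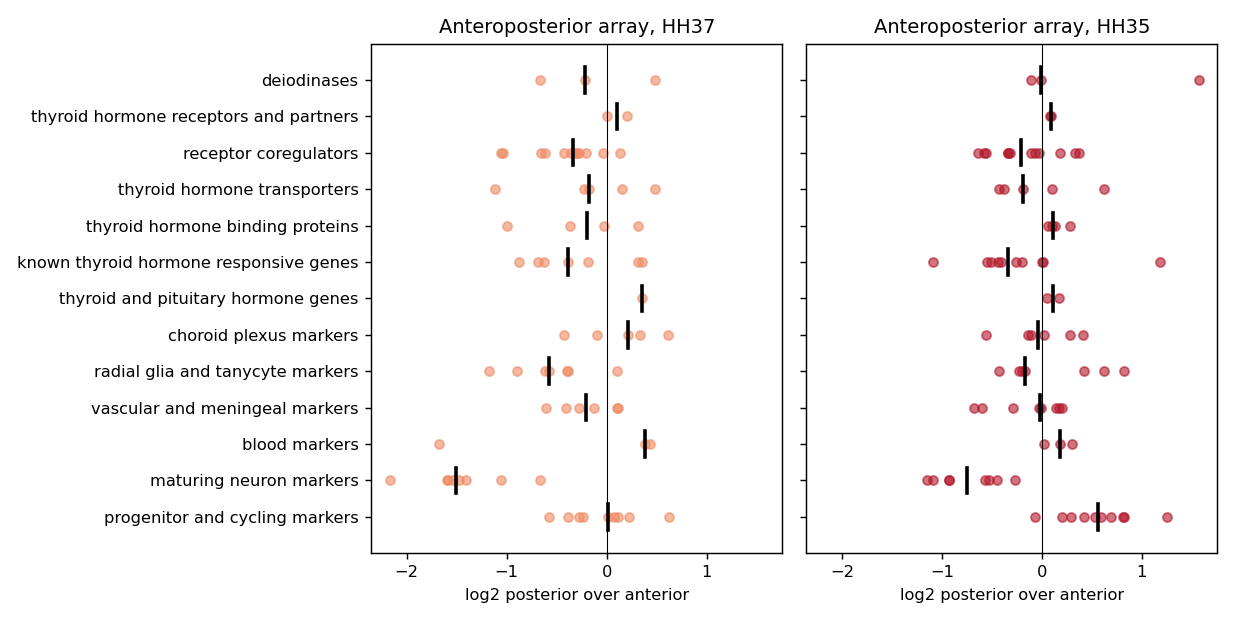
Log2 ratio of posterior over anterior (horizontal axis) of each measured gene (points) of 13 gene lists (rows), with a black bar at the median of the list, on the anteroposterior arrays at HH37 (left) and HH35 (right). DIO3 is the right-hand point of the deiodinase row on both arrays, and the maturing neuron row lies below 0 on both. The progenitor row has a median of 0.01 at HH37 and 0.56 at HH35. At HH37 that median is the computed value of CCNB3, whose posterior spot was under the limit.

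The genes with a pattern nearest to that of DIO3 over the 4 arrays were found by the Euclidean distance between log2 ratios, among 6900 genes with a symbol that were measured on all 4. HYAL2, a hyaluronidase, was nearest, at a distance of 0.541, with ratios of 0.23 at HH37 and 1.19 at HH35 along the anteroposterior axis and of -0.27 and -0.36 along the mediolateral axis at HH35 and HH30. HES6, a basic helix-loop-helix factor of neurogenesis, followed at 0.636. The next were LEUTX at 0.719, which the gene table lists with DBX1 as another name, EFNA5, an ephrin ligand that repels retinal axons, at 0.891, and ARHGAP39L at 0.912. EFNA5 stood at 0.07 at HH37 and 1.16 at HH35 along the anteroposterior axis. Its mediolateral ratios were 0.09 at HH35, on the other dye side from DIO3, and -0.07 at HH30. The median distance of all genes was 1.90. These distances include the anteroposterior ratios by which the genes were chosen, and the largest of the 4 DIO3 ratios is that of 1.57 at HH35. Nearness to DIO3 is therefore a description, and the median distance is not a test of it. DIO3 had a higher anteroposterior ratio at HH35 than each of the nearest genes named. For THRA the nearest were VSIG1 at 0.0491, CD244 at 0.0531, MDFI at 0.0723, BANK1 at 0.0744 and ILDR2 at 0.0767, where the median was 0.715. Their ratios, like those of THRA, were all small and on the Cy5 side. THRB was not measured on all arrays and has no neighbours.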

How the data were processed

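RNA of pooled chick optic tectum was measured on 4 two-colour arrays. The deposited spot tables hold the intensity of each of 45220 spots in linear scanner units, foreground and background apart and not normalised, and the percent of saturated pixels, per the file headers. The submitters' processing notes name Agilent Feature Extraction, but the columns are those of GenePix, and these were used. For every probe and array, the authors' deposited table holds a channel ratio, and the series' value table, also deposited, holds its log2. Each is Cy3 over Cy5, with normalisation steps that the sources used here do not state. Once turned round, the value table had an r between 0.724 and 0.848 across probes with the log2 ratios used here, and medians of -0.13 and 0.00 on the anteroposterior arrays at HH37 and HH35, and of -0.02 and 0.00 on the mediolateral arrays at HH35 and HH30.

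Limma 3.58.1 (R 4.3.3) was used to correct background by normexp with an offset of 50 on mean foreground and median background, and to normalise log2 ratios by loess with a span of 0.3 that gave control spots no weight. Signals of each spot were called above background by the limit of 2.6 background SD. Where 1 channel missed that limit, printed folds take that channel at its computed signal. The lowest signal above the limit on the array is used instead where it is higher. The limit of the spot itself is not used, so such a fold is not a strict lower bound. Medians, figures and limma use the computed ratio. A gene with several probes is represented in the lists and fits by its brightest. Levels were quantile normalised between arrays. Symbols came from the files and from a RefSeq table of assembly GRCg7b, which served for names alone because no build is stated in the files. In all, 10066 probes of 8604 genes were named, and 73 were left unnamed because names disagreed. Table columns of per-sample values that match no sample numbered 0.

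The mediolateral comparison was a limma fit over 4 arrays with a coefficient for each axis and 2 residual degrees of freedom, and the stage comparison one with a coefficient for each stage and 1 residual degree of freedom. Both covered 30522 features measured on at least 2 arrays, with Benjamini-Hochberg adjustment at 0.05. The p-values measure only the spread between these arrays, and in the mediolateral fit that spread includes the anteroposterior arrays. Simulated data of 30522 features were used to test the mediolateral fit, which found 91% of 100 features set 1 apart on the log2 scale, 100% of 100 set 2 apart, and 8 that were unchanged. Precision is limited by the number of arrays. The median SD of repeated control spots lay between 0.114 and 0.151 on the log2 scale, within an array.

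The genes, lists and tests were chosen with earlier results of these data known. Genes named are all probes that the name rule found, list genes past 1.5-fold on at least 1 array, the brightest and dimmest of a list, and the 5 genes nearest in pattern to DIO3 and THRA, of which those that bear on a result are given. Alternatives covered background correction, spot statistic, normalisation, use of the deposited values, keeping dim probes, the variance model, the channel, the probe of a gene, the fold threshold and leaving out each array. The limit from negative controls was added after the data were seen. Tables were summarised in Python 3.11.15 with pandas 2.3.3 and numpy 2.4.6, and drawn with matplotlib 3.10.9.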

Additional observations from a re-analysis of the deposited data

Results flagged for a closer look

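NES, the intermediate filament gene nestin of neural progenitors and radial glia, stood past 1.5-fold on opposite sides at the 2 anteroposterior stages. Its log2 ratio of posterior over anterior was -0.62 at HH37 and 0.63 at HH35. With 1 array per stage the difference was not tested. DIO3 stood at 0.49 and 1.57 on the same arrays.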

How the results depend on the processing

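No paired analysis was possible because each axis and stage has 1 array, which carries no replicate number shared with another sample. Median centring in place of loess moved the anteroposterior ratio of DIO3 to 0.22 at HH37 and 1.31 at HH35, that of DIO2 to -1.06 and -0.36, and that of THRA to -0.21 and -0.19, which turns THRA to the anterior side. Plain background subtraction gave DIO3 0.75 at HH37, and the series' value table gave DIO2 -0.44 on the mediolateral array at HH35. Over all alternatives DIO3 lay between 0.22 and 0.75 at HH37 and between 1.31 and 1.73 at HH35 on the anteroposterior arrays, and between -0.68 and -0.52 at HH35 and between -0.40 and -0.29 at HH30 on the mediolateral arrays. Past 1.5-fold were 25 of 70 measured list genes at HH37 and 17 of 78 at HH35 on the anteroposterior arrays. On the mediolateral arrays 2 of 73 were at HH35 and 4 of 79 at HH30. Of all features, 1.5% were past it posteriorly and 9.92% anteriorly at HH37, and 2.05% and 6.05% at HH35. The mediolateral shares in Cy5 and Cy3 were 1.43% and 0.783% at HH35, and 1.49% and 1.18% at HH30. With a 2-fold threshold the list genes past it numbered 12, 6, 0 and 1, fewer by construction. The mediolateral HH35 count was 6 with plain subtraction and 7 in the value table, and the HH30 count 2 with median pixels and 7 in the value table. The mediolateral limma count of 2 was 0 with plain subtraction, 0 with median centring, 0 in the value table and 0 with an intensity trend and robust variance, and between 1 and 19 without 1 array, 1 being without the HH30 array and 19 without the mediolateral HH35 array. With median centring between arrays, HH37 over HH35 was 0.075 for THRA and -0.52 for DIO2. Stage counts of 0 became 2 at HH37 over HH35 and 1 at HH30 over HH35 with trend and robust variance, and 1 at HH37 over HH35 with median centring between arrays. The DIO2 mediolateral mean of 0.01 was -0.011 with plain subtraction, -0.019 with median pixels, -0.080 with median centring and -0.091 in the value table, and lay between -0.18 and 0.21 without 1 array. DIO2 at HH37 over HH35 was 0.22 in Cy3 alone and between -1.06 and 0.97 without 1 HH35 array, and at HH30 over HH35 it lay between -0.68 and 1.34. DIO3 at HH30 over HH35 was -0.039 in Cy5 alone, and THRA there lay between -0.062 and 0.23 without 1 HH35 array. Without either HH35 array the stage fit has no residual degrees of freedom, so these are values with no test. The cause of these shifts was not tested. The dim HH37 array and the spots of THRB and TTR near background limit what can be read of them.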
